A study of Sus scrofa with 6 samples.

Results

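Antioxidant and glutathione genes were followed in pig oocytes collected ahead of maturation and in oocytes matured in culture. Membership was set by gene symbol, by a rule proposed with earlier results of these data known. It took probes annotated with 1 gene symbol from the glutathione peroxidase, peroxiredoxin, thioredoxin, glutathione transferase, superoxide dismutase, glutaredoxin, glutamate-cysteine ligase, NQO and haem oxygenase families, together with CAT, GSR, GSS, NFE2L2 and KEAP1. This gave 41 genes of 10865 named genes on the array, each measured by 1 of 12258 probes. Of 27 genes of these families set for description, 21 were matched, and SOD1, GPX1, GPX4, HMOX1, GSTP1 and MGST1 were not analysed here.

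Each of 6 Affymetrix arrays held total RNA from a pool of 50 oocytes of pubertal crossbred Landrace gilts, with 3 arrays per group. Pools before maturation are titled as oocytes in vivo, and their descriptions place them ahead of culture. Matured pools came from cumulus-oocyte complexes, in which somatic cumulus cells enclose the oocyte, kept for 44 h at 38 °C under 5% CO2 in medium with added cysteine, pyruvate, albumin, follicular fluid and the gonadotropins hCG and eCG. Whether cumulus cells were stripped before RNA extraction is not given in the sources used here, and a BCB test named in the design is not assigned to single samples. Culture was given to the matured pools alone, so maturation, culture time and medium cannot be told apart.

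Cells remove superoxide with superoxide dismutases, which make hydrogen peroxide, and remove the peroxide with catalase, glutathione peroxidases and peroxiredoxins. The peroxidases draw electrons from glutathione or thioredoxin, which reductases then restore with NADPH. Glutathione is built from cysteine by glutamate-cysteine ligase and glutathione synthetase, and oocytes of several mammals accumulate it during maturation. The transcription factor NRF2, encoded by NFE2L2 and held back by KEAP1, drives many of these genes.

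Levels are log2 values after RMA, the authors' method of background correction, normalization and summary, so a difference of 1 is 2-fold. All differences are after minus before maturation. They were tested with limma on all probes, and a gene was called at a Benjamini-Hochberg adjusted p under 0.05. Array medians lay between 5.67 and 5.696 before maturation and between 5.62 and 5.64 after it. Lower quartiles lay between 4.27 and 4.30 before and between 4.33 and 4.45 after. In both measures the arrays of the groups did not overlap. With 3 arrays per group precision is limited throughout, and the p-values reflect how far separate pools, titled as biological replicates, differed. The 21 measured oocyte markers averaged 10.37 to 10.48 per array, and none lay under the lower quartile on all arrays. Markers of cumulus and granulosa cells were also measured, and 10 of 18 fell while 1 rose. Their mean level was 7.29, 7.44 and 7.66 before maturation in replicates 1, 2 and 3, and 6.58, 6.45 and 6.41 after it. In pooled samples fewer cells of a type and less RNA per cell cannot be told apart.

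Of the 41 genes 11 fell, 1 rose and 29 were not called. The decreases made up 26.8% of the group, beside 8.07% of all probes and 12.3% of probes brighter than the median probe. The increase made up 2.44%, beside 3.21% of all probes. Decreases of at least 2-fold were measured for NQO1, TXNIP, GCLM and PRDX6, and the remaining 7 were smaller. The single increase was GSTA1. The count of genes that fell was 6, 5 and 7 when replicate 1, 2 or 3 of the matured pools was left out, and 11, 6 and 6 when replicate 1, 2 or 3 of the pools before maturation was left out. With the replicate number as a block 11 genes fell and 1 rose as well, while the probes called higher went from 394 to 621. The median difference of the 41 genes was -0.07, against 0.08 for all probes. Replicate 3 before maturation had the highest level of its group for 9 of the 11 genes that fell and for 65.3% of the 989 probes that fell, and it also had the highest mean of the cumulus and granulosa markers. The part of other cell types in the differences was not tested.

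**Figure D1:**
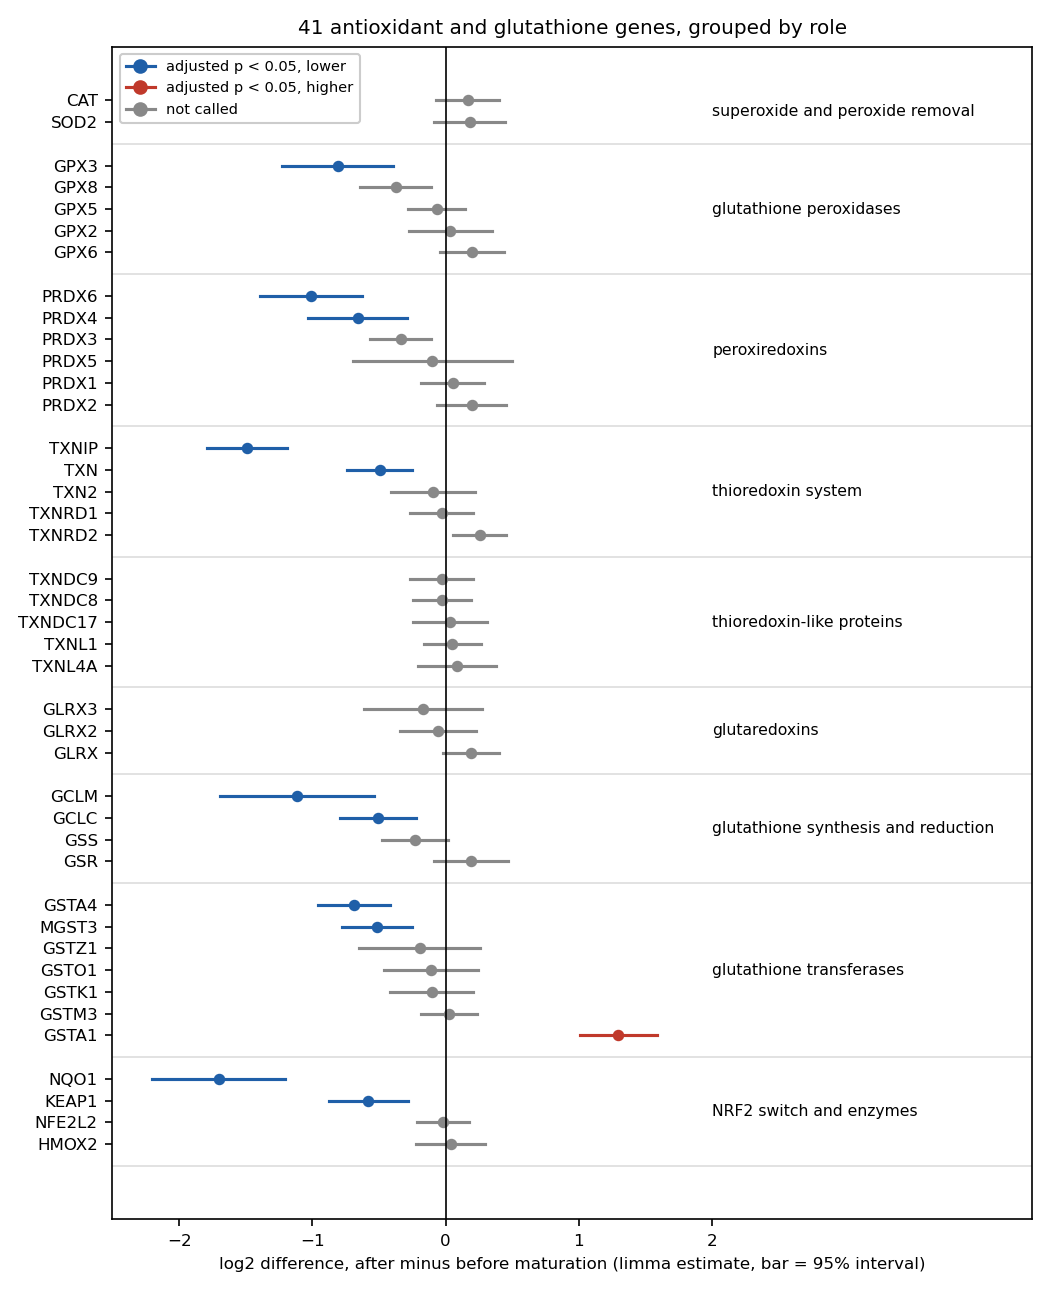
Log2 difference after minus before maturation (horizontal axis) of the 41 genes, grouped by role, with limma's 95% interval as a bar. Blue genes fell, the red gene rose and grey genes were not called; NQO1 and TXNIP lie farthest to the left and GSTA1 alone lies to the right of 1.

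The arrays' scaling bears on the direction of the group. With the 38 ribosomal protein genes of the array held level, 4 members were called lower and 24 higher, and 511 probes were lower and 9740 higher. This ribosomal scaling moved the median of all probes from 0.08 to 0.57, and it assumes that genes with a median difference of -0.53, of which 20 fell, did not change. Relative to the median of all probes the members' median was -0.15 with and without it. That value was fixed in advance, since the scaling shifts every difference by the same amount, so it tests nothing. Under the other 4 scalings 9 to 12 members were lower and 1 or 2 higher. Decreases were 71.5% of all calls on the deposited scale (989 lower and 394 higher), 80.6% under cyclic loess (1055 and 254), 59.2% when quantiles were equalised again (866 and 596), 54.7% with oocyte markers held level (872 and 721), 49.3% at a common median (891 and 915) and 4.98% with ribosomal protein genes held level. Under every scaling the number of higher calls moved further from that of the deposited scale than the number of lower calls did. All 11 genes that fell kept a negative difference under every scaling and without any 1 array.

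Superoxide dismutase 2 and catalase were not called. The mitochondrial superoxide dismutase gene SOD2 had levels of 8.33, 8.39 and 8.18 before maturation in replicates 1, 2 and 3, and 8.33, 8.67 and 8.45 after it. The catalase gene CAT had 9.77, 9.96 and 10.02 before and 10.02, 10.18 and 10.04 after. In both genes the groups overlapped. Their differences were 0.18 (95% interval -0.08 to 0.44, limma adjusted p = 0.326) and 0.16 (-0.07 to 0.40, limma adjusted p = 0.319). With limma 0 of these 2 genes were called, and 0 had an unadjusted p under 0.05. Under the ribosomal scaling both were called higher.

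Among 5 glutathione peroxidase genes 1 fell. GPX3 encodes the secreted, plasma form of the enzyme. Its level was 10.31, 9.79 and 9.86 before maturation and 9.49, 9.11 and 8.92 after it. Every matured array lay below every array before maturation. It fell by 0.81 (SE 0.18), 1.75-fold, at a limma adjusted p of 0.0264. Without replicate 2 or 3 after maturation the call was lost (limma adjusted p = 0.09997 and 0.0797), as it was with ribosomal protein genes held level (-0.32). GPX8, an enzyme of the endoplasmic reticulum membrane, also had groups that did not overlap, at 6.04, 6.30 and 6.42 before and 5.90, 5.82 and 5.92 after, where 14.4% of all probes were separated in that direction. Its difference of -0.38 was not called (limma adjusted p = 0.0737), except without replicate 1 before maturation (limma adjusted p = 0.0249). GPX2, known from the gut, GPX5, known from the epididymis, and its chromosomal neighbour GPX6 had differences of 0.03, -0.07 and 0.20. GPX2 and GPX5 lay under the lower quartile of all 6 arrays, and GPX6 under that of all 3 arrays before maturation and 1 after it, and detection above background was not analysed here.

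Peroxiredoxins reduce peroxides through a reactive cysteine, and all 6 mammalian members were measured. PRDX6, which has a single catalytic cysteine, uses glutathione and also repairs oxidized phospholipids, had the largest decrease of the family. It stood at 8.93, 9.40 and 9.64 before maturation and at 8.31, 8.36 and 8.28 after it. The matured arrays were close together, while those before maturation spread over a wider range above them. The decrease was 1.01 (SE 0.17, limma adjusted p = 0.00694), 2.01-fold, and it was called without any 1 array. PRDX4, the form of the secretory pathway, had 5.996, 6.08 and 6.58 before and 5.57, 5.40 and 5.70 after. It fell by 0.66 (SE 0.16, limma adjusted p = 0.0371). Among fits without 1 array that call held when replicate 1 before maturation was left out, while leaving out replicate 1, 2 or 3 of the matured pools, or 2 or 3 of the others, gave limma adjusted p-values of 0.116, 0.132, 0.0623, 0.0563 and 0.0505. Equalising quantiles again (limma adjusted p = 0.0559), holding oocyte markers level (limma adjusted p = 0.0503) and holding ribosomal protein genes level (-0.17) also ended the PRDX4 call.

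The remaining 4 peroxiredoxins were not called. PRDX3, the mitochondrial form, had 8.77, 8.64 and 8.79 before maturation and 8.39, 8.29 and 8.51 after it, with no overlap. Its difference was -0.34 (95% interval -0.56 to -0.11, limma adjusted p = 0.0644), and it was called lower with cyclic loess (limma adjusted p = 0.0440). The cytosolic PRDX1 had 9.98, 10.11 and 9.98 before and 10.13, 9.92 and 10.17 after, a difference of 0.05 (-0.18 to 0.29). PRDX2, the other main cytosolic form, had 10.90, 11.27 and 11.11 before and 11.32, 11.22 and 11.32 after, a difference of 0.19 (-0.06 to 0.45). For PRDX5 the arrays ranged from 5.85 to 6.41 before and from 5.43 to 6.49 after, so the interval was wide (-0.70 to 0.49). The 6 genes thus ran from -1.01 to 0.19. With ribosomal protein genes held level PRDX6 was still called lower and PRDX1 and PRDX2 were called higher.

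In the thioredoxin system TXNIP and TXN fell and the other 3 genes were not called. TXNIP encodes a protein that binds thioredoxin, restrains it and limits glucose uptake. Its level was 9.79, 9.78 and 10.00 before maturation and 8.31, 8.61 and 8.18 after it. The gap between the groups exceeded the spread within either. TXNIP fell by 1.49 (SE 0.13), 2.81-fold, at a limma adjusted p of 0.000263, and kept the call under all 16 alternatives. Among these alternatives the mean of a gene's probes left member values unchanged, since each member had a single probe. TXN, the cytosolic thioredoxin gene, had 10.83, 10.96 and 11.09 before and 10.35, 10.50 and 10.54 after. It fell by 0.50 (SE 0.10, limma adjusted p = 0.0210), 1.41-fold, with no overlap between groups. Leaving out matured replicate 1 or 2, or replicate 2 or 3 before maturation, ended the TXN call (limma adjusted p = 0.0891, 0.0640, 0.0563 and 0.0534). Under the ribosomal scaling the TXN difference was -0.01.

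The reductases that restore thioredoxin were not called. TXNRD1, the cytosolic enzyme and a target of NRF2, had 7.94, 8.07 and 8.13 before maturation and 8.004, 7.90 and 8.15 after it. The groups overlapped, and the difference was -0.03 (95% interval -0.27 to 0.21, limma adjusted p = 0.866). TXNRD2, the mitochondrial reductase, was higher on every matured array, at 4.57, 4.55 and 4.61 before and 4.87, 4.75 and 4.87 after. Among all probes 21.7% were separated in that direction, and the difference of 0.26 was not called (limma adjusted p = 0.0985). It was called at a common median (limma adjusted p = 0.0499) and under the ribosomal scaling. TXN2, the mitochondrial thioredoxin gene, had 7.78, 7.95 and 7.42 before and 7.56, 7.60 and 7.71 after, a difference of -0.10 (-0.41 to 0.22).

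Proteins with a thioredoxin fold that serve other tasks were close to 0. TXNL1 is associated with the proteasome, TXNL4A with the spliceosome and TXNDC9 with protein folding. Together with TXNDC17 and TXNDC8, these 5 genes differed by -0.03 to 0.08. With limma 0 of the 5 were called and 0 had an unadjusted p under 0.05. TXNDC8, a gene known from the testis that lies next to TXN in the pig genome, was under the lower quartile of all 6 arrays. Leaving these 5 genes out left 11 lower and 1 higher of 36.

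Glutaredoxins, which use glutathione to reduce protein disulphides, were not called either. GLRX was higher on every matured array, at 5.11, 5.04 and 4.93 before and 5.21, 5.16 and 5.28 after. Its difference of 0.19 was not called (95% interval -0.02 to 0.40, limma adjusted p = 0.213). GLRX2 and GLRX3, forms of the mitochondria and of iron-sulphur protein assembly, differed by -0.06 and -0.17 with overlapping groups. With limma 0 of the 3 genes were called and 0 had an unadjusted p under 0.05.

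Both subunit genes of glutamate-cysteine ligase, the rate-limiting enzyme of glutathione synthesis, fell. GCLM, the modifier subunit that raises the activity of the enzyme, had 7.76, 7.78 and 8.50 before maturation and 7.24, 6.43 and 7.03 after it. The groups did not overlap, although replicate 3 before maturation and replicate 2 after it stood away from the rest. It fell by 1.11 (SE 0.25, limma adjusted p = 0.0264), 2.17-fold. Without replicate 2 or 3 after maturation or replicate 3 before it the call of GCLM was lost (limma adjusted p = 0.0854, 0.0611 and 0.0518).

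GCLC, the catalytic subunit, had 9.97, 10.07 and 10.29 before maturation and 9.43, 9.61 and 9.77 after it. Each matured array was below each array before maturation. The decrease was 0.51 (SE 0.12, limma adjusted p = 0.0360), 1.42-fold. Leaving out replicate 1 or 2 after maturation, or replicate 2 or 3 before it, gave limma adjusted p-values of 0.127, 0.107, 0.0735 and 0.0891, and GCLC was also not called with oocyte markers held level (limma adjusted p = 0.0571) or under the ribosomal scaling, where its difference was -0.02.

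The enzymes after the ligase were not called. Glutathione synthetase, GSS, adds glycine to complete the tripeptide. Its levels were 6.21, 6.12 and 6.06 before and 5.94, 5.72 and 6.04 after, separated by a narrow gap. The difference was -0.23 (95% interval -0.48 to 0.02, limma adjusted p = 0.195). Glutathione reductase, GSR, returns oxidized glutathione to its reduced form. It had 10.58, 10.99 and 10.87 before and 10.95, 10.98 and 11.07 after, with overlap. The difference was 0.19 (-0.09 to 0.47, limma adjusted p = 0.326).

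Of 7 glutathione transferase genes, which couple glutathione to electrophiles, 2 fell, 1 rose and 4 were not called. GSTA1, an alpha-class enzyme abundant in steroid-producing cells, had 9.48, 9.52 and 9.91 before maturation and 10.89, 11.00 and 10.90 after it. The matured arrays lay within a narrow range well above the others. GSTA1 rose by 1.30 (SE 0.13), 2.46-fold, at a limma adjusted p of 0.000506, and kept the call under all 16 alternatives. GSTA1 belongs to a multigene family with close copies, and whether its probe also reads another copy was not tested, so the level is uncertain. Of the cumulus and granulosa markers tied to steroid synthesis, HSD3B1 rose by 3.95, while HSD17B1 fell by 4.41 and NR5A1, a regulator of steroid enzyme genes, fell by 1.23. NR5A1 is named outside the rule, after its value was seen. HSD3B1 lay under the lower quartile on 2 arrays before maturation, so its fold is not exact.

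GSTA4, a relative of GSTA1 that prefers products of lipid peroxidation, lies near it with 2 protein-coding genes between them in RefSeq's order, and it changed the other way. Its level was 10.39, 10.42 and 10.77 before maturation and 9.86, 9.86 and 9.79 after it. The decrease was 0.69 (SE 0.12, limma adjusted p = 0.00815), 1.61-fold, and was called without any 1 array. GSTA4 was not called under the ribosomal scaling (-0.20). MGST3, a membrane-bound transferase, had 8.94, 9.03 and 9.19 before and 8.36, 8.68 and 8.57 after. It fell by 0.52 (SE 0.11, limma adjusted p = 0.0252). MGST3 was not called when matured replicate 1 or 3, or replicate 2 or 3 before maturation, was left out (limma adjusted p = 0.0940, 0.0629, 0.0608 and 0.0660), and its difference was -0.03 under the ribosomal scaling.

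The other 4 transferases had overlapping groups. GSTM3, a mu-class gene, stood at 10.91, 11.09 and 11.08 before maturation and 11.08, 11.02 and 11.06 after it, a difference of 0.03 (95% interval -0.19 to 0.24). GSTK1, GSTO1 and GSTZ1, of the kappa, omega and zeta classes, differed by -0.11, -0.11 and -0.19. With ribosomal protein genes held level GSTM3, GSTK1 and GSTO1 were called higher.

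Of the pair that governs this programme KEAP1 fell and NFE2L2 was not called. NFE2L2, the gene of NRF2, had 10.61, 10.53 and 10.52 before maturation and 10.53, 10.52 and 10.56 after it. The arrays of both groups were close together, and the difference was -0.02 (95% interval -0.21 to 0.17, limma adjusted p = 0.894). KEAP1, the adaptor that delivers NRF2 for degradation, had 6.35, 6.30 and 6.14 before and 5.77, 5.43 and 5.85 after. It fell by 0.58 (SE 0.13, limma adjusted p = 0.0255), 1.49-fold, with no overlap between groups. Leaving out replicate 1 or 2 of either group ended the KEAP1 call (limma adjusted p = 0.0702 and 0.0667 for the matured pools, 0.0537 and 0.0702 for the others), and so did equalising quantiles again (limma adjusted p = 0.0599). Under the ribosomal scaling KEAP1 differed by -0.09 and NFE2L2 was called higher (0.47).

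NQO1, a quinone reductase and a classic target of NRF2, had the largest decrease of the 41 genes. Its level was 5.77, 6.29 and 6.61 before maturation and 4.69, 4.67 and 4.20 after it. Arrays before maturation spread more than the matured ones and stayed above all of them. NQO1 fell by 1.70 (SE 0.22), 3.26-fold, at a limma adjusted p of 0.00192, and kept the call under all 16 alternatives. Replicate 3 after maturation lay under the lower quartile of its array, so the fold is not exact. HMOX2, the constitutive haem oxygenase, had 8.33, 8.46 and 8.08 before and 8.31, 8.29 and 8.38 after, a difference of 0.04 (95% interval -0.22 to 0.30).

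**Figure D2:**
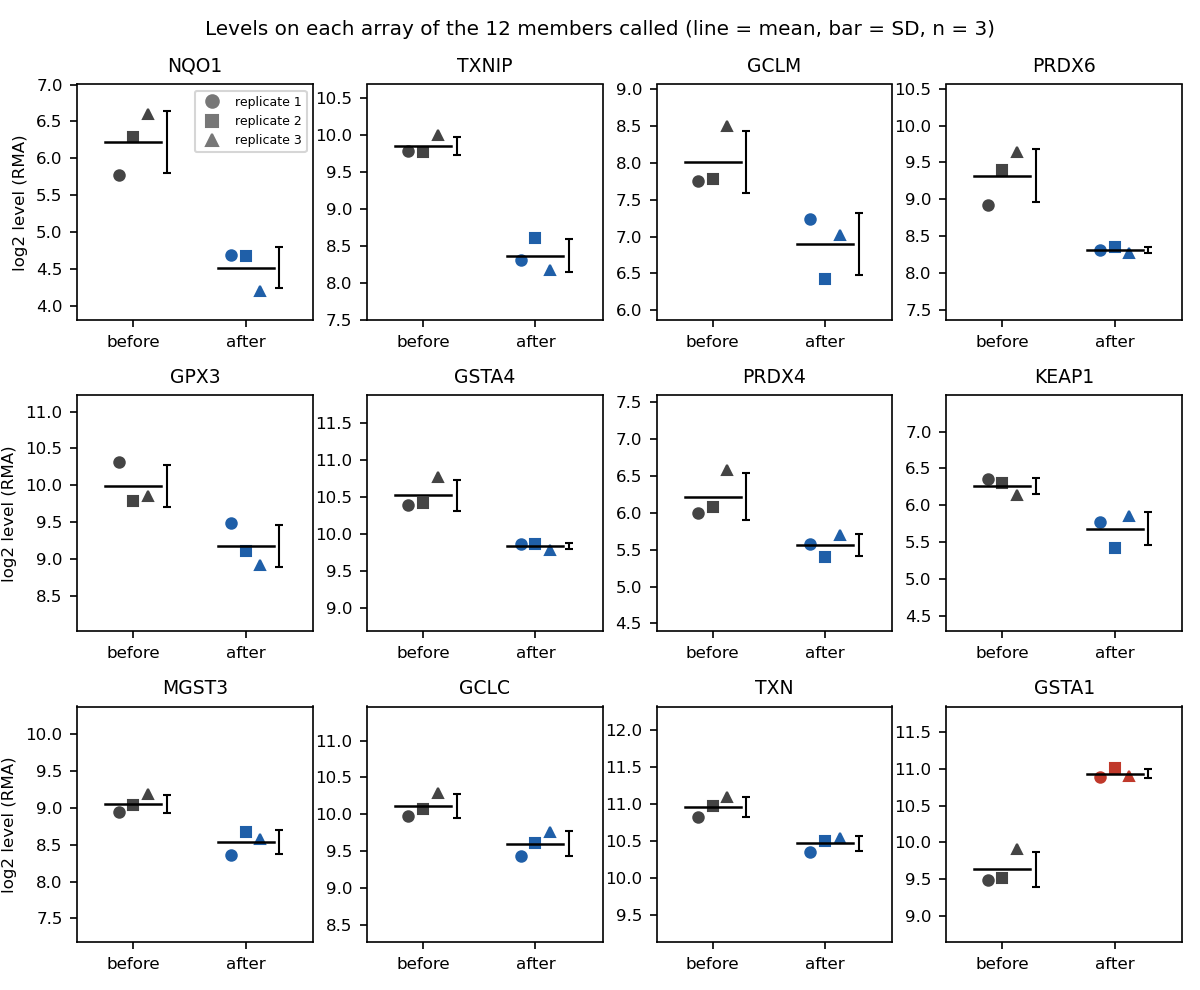
Log2 level (vertical axis, RMA values) on each array of the 12 genes called, before maturation in grey and after it in colour, with marker shapes for replicates 1 to 3, a line at the mean and a bar of 1 SD (n = 3). Each panel spans the same range of log2 units, and in all 12 the groups do not overlap; GSTA1 is the panel in which the matured arrays are the higher ones.

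Groups did not overlap for 14 genes in the lower direction, which are the 11 that fell with GPX8, PRDX3 and GSS, beside 14.4% of all probes. In the higher direction they did not overlap for 3 genes, GSTA1, TXNRD2 and GLRX, beside 21.7% of all probes. With 3 arrays per group the smallest two-sided p of an exact permutation test is 0.10, so separation of the arrays was not tested gene by gene.

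Ratios between members within an array do not depend on a shift of the whole array. They are given for 7 pairs that were chosen after their values were seen. Exact two-sided permutation tests gave p = 0.10 for 6 pairs, the smallest p that 3 arrays per group allow, and 0.3 for GCLM over GCLC (0.117 and 0.3 after Benjamini-Hochberg adjustment over the 7), so no pair passed and the values are a description. The log2 ratio of GSTA1 over GSTA4 was -0.91, -0.90 and -0.86 before maturation and 1.03, 1.15 and 1.12 after it. That is a change of 1.99, with an SD of 0.03 before and 0.06 after. The ratio of TXN over TXNIP rose by 0.996, and that of TXN over TXNRD1 fell by 0.47. The ratio of NFE2L2 over KEAP1 rose by 0.56, and that of GSR over GCLC rose by 0.70. For PRDX1 over PRDX6 the change was 1.06. Only for GCLM over GCLC, with a change of -0.61, did the arrays of the groups overlap. A ratio does not show which gene of a pair changed.

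**Figure D3:**
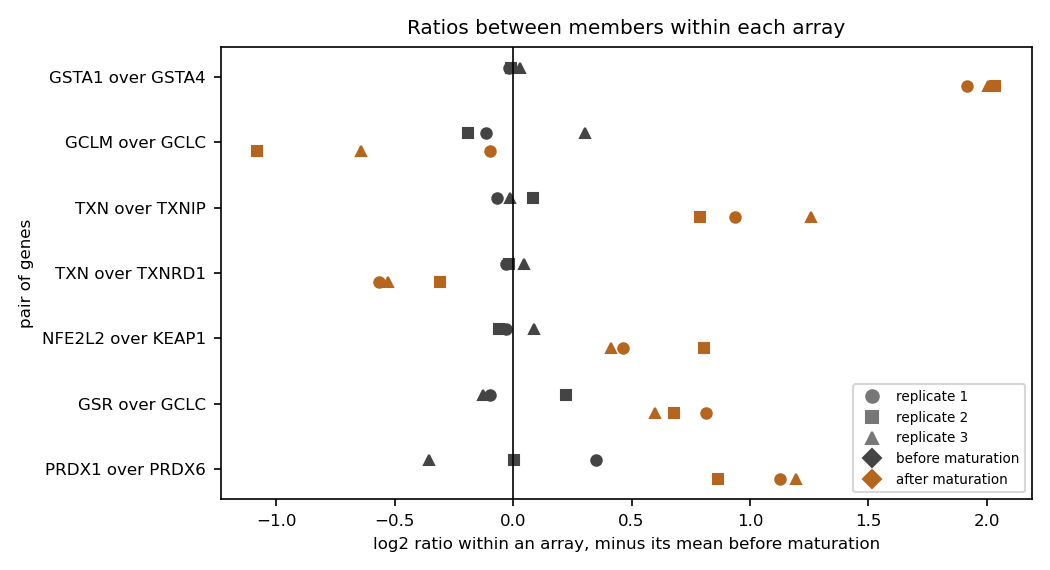
Log2 ratio of 2 genes within each array, minus the mean of that ratio before maturation (horizontal axis), for 7 pairs, with grey points before and brown points after maturation and marker shapes for replicates. The GSTA1 over GSTA4 points form tight clusters about 2 log2 units apart, and GCLM over GCLC is the pair whose groups overlap.

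Other genes of the pathway were read from 7 lists, with 80 of 155 genes measured. Of these 12 fell and 3 rose, which is 15.0% and 3.75%, beside 8.07% and 3.21% of all probes. Their median difference was 0.02, against 0.08 for all probes. Leaving out replicate 1, 2 or 3 of the matured pools gave 5, 6 and 7 lower, and 1 was called higher when matured replicate 1 or 3, or replicate 2 or 3 before maturation, was left out. With ribosomal protein genes held level 3 were lower and 56 higher.

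Genes of glutathione precursor supply and turnover gave 1 increase. Of 12 measured genes 0 fell with limma and 3 of either direction had an unadjusted p under 0.05. SLC1A4, a transporter of small neutral amino acids including cysteine, rose by 0.47 from 9.07 ± 0.18 to 9.54 ± 0.03 (SD, n = 3, limma adjusted p = 0.0291). Leaving out any array other than replicate 1 before maturation ended this call, with a limma adjusted p between 0.0536 and 0.0986. ANPEP, a peptidase that splits the dipeptide left by glutathione breakdown, had a difference of 0.33 (limma adjusted p = 0.0747).

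A list for NADPH supply gave 3 decreases among 13 genes. It also holds enzymes of the pentose phosphate and folate pathways that do not make NADPH themselves, PGLS and MTHFD1L among them. ME3, the mitochondrial malic enzyme, fell by 1.07 from 7.04 ± 0.09 to 5.97 ± 0.38 (SD, n = 3, limma adjusted p = 0.00651). MTHFD1L, a mitochondrial folate enzyme, fell by 0.83 (limma adjusted p = 0.0116, rising to 0.0561 or 0.0592 when matured replicate 1 or 2 was left out). PGLS, of the pentose phosphate pathway, fell by 0.65 (limma adjusted p = 0.00515). MTHFD1L and PGLS were not called under the ribosomal scaling.

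Further genes tied to NRF2 gave 2 decreases and 1 increase among 17. The esterase gene ESD fell by 0.83 (limma adjusted p = 0.00623) and was not called under the ribosomal scaling (-0.35, limma adjusted p = 0.0527). ABCC3, a pump for conjugated compounds, rose by 0.81 from 4.93 ± 0.21 to 5.74 ± 0.09 (SD, n = 3, limma adjusted p = 0.00439). EPHX1, an epoxide hydrolase gene, fell by 0.36 (limma adjusted p = 0.0434), but this call was lost with the replicate number as a block (limma adjusted p = 0.0537) and reached an adjusted p of 0.141 without replicate 1 after maturation, and its difference turned to 0.13 with ribosomal protein genes held level. EPHX1 was also not called at a common median (limma adjusted p = 0.0564) or with oocyte markers held level (0.0575).

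A list for repair of oxidized proteins and DNA gave 2 decreases and 1 increase among 12 genes. It also holds genes of disulphide formation and of stress responses, PDIA6 and SESN2 among them. MSRA, which reduces oxidized methionine, fell by 0.996 from 6.18 ± 0.25 to 5.18 ± 0.23 (SD, n = 3, limma adjusted p = 0.00551). SESN2, a stress-induced sestrin gene, rose by 0.52 (limma adjusted p = 0.0451, up to 0.151 without replicate 1 after maturation). With limma's trend and robust options SESN2 was not called (limma adjusted p = 0.0535). PDIA6, a disulphide isomerase gene of the endoplasmic reticulum, fell by 0.44 (limma adjusted p = 0.0337, up to 0.105 without replicate 1 after maturation), and turned to 0.05 with ribosomal protein genes held level.

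Selenium, which many glutathione peroxidases and thioredoxin reductases carry as selenocysteine, was covered by 7 genes of which 2 fell. PSTK, a kinase that acts on the transfer RNA of selenocysteine, fell by 0.56 from 6.46 ± 0.01 to 5.89 ± 0.09 (SD, n = 3, limma adjusted p = 0.00573). LRP8, a receptor for selenoprotein P, fell by 0.59 (limma adjusted p = 0.0379, up to 0.131 without replicate 2 after maturation). Equalising quantiles again also ended the LRP8 call (limma adjusted p = 0.0796). Under the ribosomal scaling neither gene was called.

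Oxidant-producing enzymes gave 2 decreases among 11 genes. NOS2, the inducible nitric oxide synthase gene, fell by 0.67 (limma adjusted p = 0.0223, up to 0.0703 without replicate 3 after maturation), and under the ribosomal scaling it was not called (-0.19, limma adjusted p = 0.290). NOX4, an oxidase that releases hydrogen peroxide, fell by 0.37 (limma adjusted p = 0.0375, up to 0.123 without replicate 1 after maturation) and turned to 0.11 with ribosomal protein genes held level. NOX4 was also not called at a common median (limma adjusted p = 0.0529), with oocyte markers held level (0.0654) or with limma's trend and robust options (0.0523). Among 8 genes of metal and haem handling the iron exporter gene SLC40A1 fell by 1.01 (limma adjusted p = 0.0121, rising to 0.0546 or 0.0615 when matured replicate 1 or 2 was left out), and the transferrin receptor gene TFRC had a difference of -0.39 (limma adjusted p = 0.286).

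Markers of the other cell types that the pools could hold went as follows. Of 10 measured genes of cumulus expansion 4 rose and 0 fell, with HAPLN1 at 2.51 and CD44 at 1.21. Of the 10, 5 lay under the lower quartile on all arrays. Among those that rose, HAPLN1, PTGS2 and PTX3 lay under it on all 3 arrays before maturation, so their folds are not exact. PTX3, among the 4, lost its call under cyclic loess (limma adjusted p = 0.0617) and when quantiles were equalised again (0.0576). Its call was also lost in each fit without 1 array except that without replicate 3 after maturation. Of the 21 oocyte markers 3 fell and 0 rose, with KIT at -1.22, ZP3 at -0.70 and ZP4 at -0.40. ZP4 lost its call whichever array was left out (limma adjusted p from 0.0640 to 0.0972), at a common median (0.0511) and with oocyte markers held level (0.05995), and under the ribosomal scaling it turned to 0.086 and ZP3 was not called (-0.21). Theca and stromal cells had 11 measured markers, of which 2 rose and 1 fell. The increases were 0 without replicate 1 after maturation, without replicate 2 or 3 before it and without the dimmest 25% of probes, and 1 without replicate 2 or 3 after maturation, under cyclic loess and when quantiles were equalised again. Of 8 leukocyte and erythroid markers CD3E rose, a call lost under cyclic loess (limma adjusted p = 0.0528) and in 5 of the 6 fits without 1 array, all but that without replicate 2 before maturation. Of 7 endothelial markers 0 were called with limma, with 2 at an unadjusted p under 0.05. Their part in the differences of the antioxidant and glutathione genes was not tested.

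Calls of the 12 genes differed in how far they depended on single arrays. NQO1, TXNIP, PRDX6, GSTA4 and GSTA1 were called without any 1 of the 6 arrays. GSTA1 was the gene called higher in each of these 6 fits. Against a 1.5-fold change, NQO1 and TXNIP were called lower and GSTA1 higher.

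**Figure D4:**
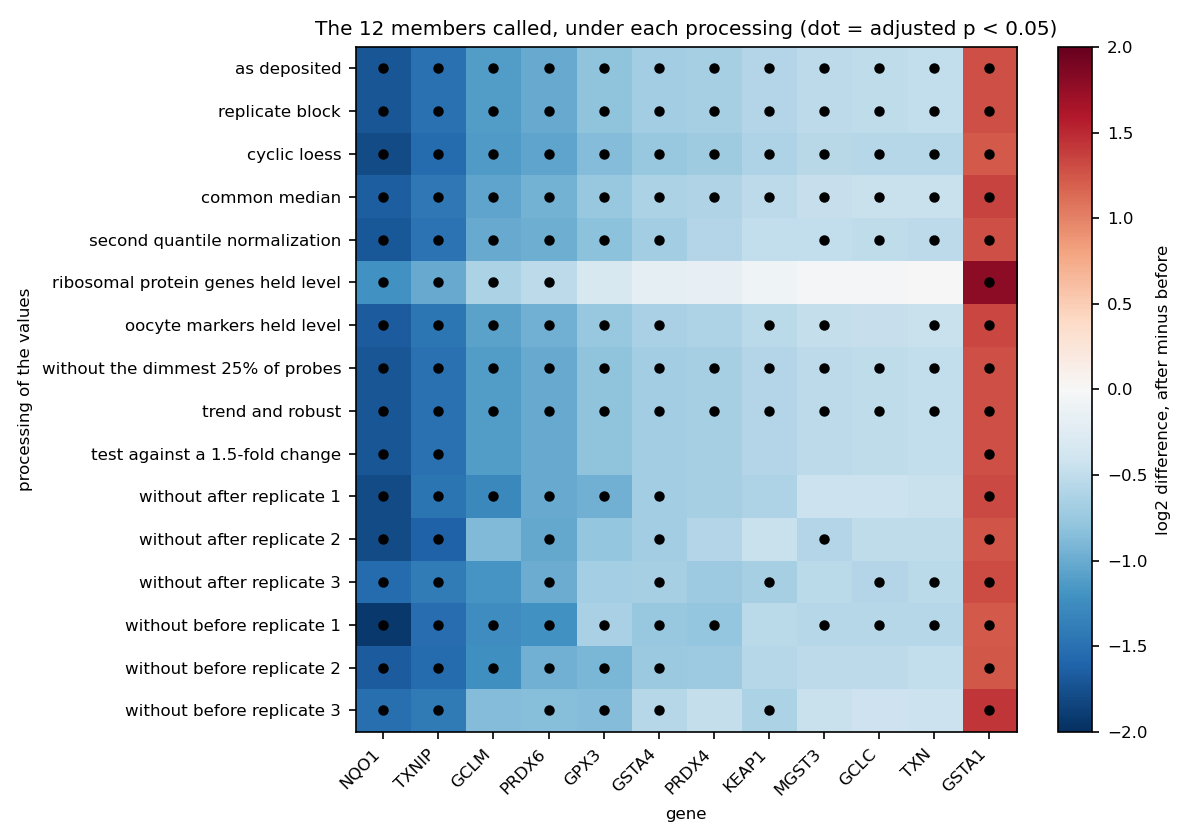
Log2 difference after minus before maturation (colour, blue lower and red higher) of the 12 genes called (columns) under the deposited scale and 15 other ways of processing (rows), with a dot where the limma adjusted p was under 0.05. NQO1, TXNIP and GSTA1 carry a dot in every row, and the row with ribosomal protein genes held level is the palest for the genes that fell.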

How the data were processed

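The deposited table holds log2 expression values that the authors made with RMA, per the submitters' processing notes, with the log2 scale taken from that method and the values' range. The version and options of RMA, and any probe filter, are not stated there. Per the labels' protocols, 100 ng of RNA per pool was amplified in 2 rounds. No read depth applies to arrays, and detection calls were not analysed here. Probes were named from the platform annotation, of which 10922 had 1 symbol, 268 several and 1068 none. All 41 member symbols matched the RefSeq table of Sscrofa11.1, used only for names and gene order. Sequences were not used here.

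All 12258 probes were fitted with limma 3.58.1 in R 4.3.3 (lmFit, eBayes, two-sided), adjusted over all probes, and the members were read from that fit. The fit was tested on simulated data. Members and lists were chosen with earlier results of these data known. Members called, and 27 fixed genes where matched, are described by array, and of each related or marker list up to 4 called genes, or the 2 with the smallest p, were eligible. Genes shown outside these rules, called or not, were added with their values in view. Same-numbered arrays deviated together (correlations of 0.283, 0.120 and 0.142, each above 0.1). This is a weak hint that the numbers pair the arrays, and the labels do not state a pairing. The fit without the replicate block was kept, so SEs, intervals and adjusted p-values use no pairing except where the block is named. Replicates differed by a median of 0.125 to 0.168, so none was a copy. Summaries used pandas 2.3.3 (Python 3.11.15) and plots used matplotlib 3.10.9.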

Additional observations from a re-analysis of the deposited data

How the results depend on the processing

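Each result was recomputed with the replicate block, 5 other scalings, without the dimmest 25% of probes, with trend and robust set, against a 1.5-fold change, with the mean of a gene's probes and without each array. Each member had a single probe, so the mean of a gene's probes is no separate check of the members. With the replicate block 11 members were lower and 1 higher, as without it, 621 probes were called higher in place of 394, and of the named genes EPHX1 lost its call. Members called lower were 4 with ribosomal protein genes held level and 2 against a 1.5-fold change, in place of 11, and 5 to 7 without 1 array, except 11 without replicate 1 before maturation. Members called higher were 2 at a common median and 24 with ribosomal protein genes held level, in place of 1.

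Probes called lower, 989 on the deposited scale, were 511 with ribosomal protein genes held level, 222 against a 1.5-fold change and 531 to 1013 without 1 array. Probes called higher were 254 with cyclic loess, 915 at a common median, 596 after a second quantile normalization, 9740 with ribosomal protein genes held level, 721 with oocyte markers held level, 27 against a 1.5-fold change and 103 to 434 without 1 array. Related genes called lower, 12 as reported, were 3 with ribosomal protein genes held level, 0 against a 1.5-fold change (limma, with 4 of either direction at an unadjusted p under 0.05) and 5 to 10 without 1 array. Related genes called higher, 3 as reported, were 8 at a common median, 56 with ribosomal protein genes held level, 6 with oocyte markers held level, 0 against a 1.5-fold change and 1 to 4 without 1 array.

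Holding ribosomal protein genes level adds the same amount to every difference. It moved the members' median to 0.42, and it turned TXNDC8 (0.46), GLRX2 (0.43), GSTO1 (0.38), NFE2L2 (0.47), GSTK1 (0.38), TXNDC9 (0.46), TXN2 (0.39), TXNRD1 (0.46) and GPX5 (0.42) into calls in the higher direction, and EPHX1 (0.13), PDIA6 (0.050), NOX4 (0.11) and ZP4 (0.086) to positive values that were not called. Over all member genes and alternatives, 580 values kept their status, called or not called, 46 lost a call and 17 gained one. Only the 12 genes called could lose a call. The 580 thus include genes not called that stayed so, and the mean of a gene's probes, which could change nothing. They do not measure how often a call held. The other 9 had negative differences that were not called and became calls in the higher direction. No gene called lower became called higher. The promoter motif search was not run, and dim probes limit what GPX2, GPX5, GPX6 and TXNDC8 can show.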
